A study of Rattus norvegicus with 24 samples.

Results

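The genes described here encode enzymes that make, elongate and desaturate fatty acids in the liver, with the enzyme malic enzyme that supplies reducing power and the lipogenic nuclear protein encoded by Thrsp. They were a named list of 10 genes (Acly, Acaca, Acacb, Acss2, Elovl5, Elovl6, Scd, Fads1, Me1 and Thrsp), taken from the 17245 genes for which a probe set was paired with 1 gene symbol alone. All 10 were found, each with 1 probe set, so no choice between probe sets was needed. The rule that picks the probe sets uses no diet or time difference. The members and the other lists were chosen with earlier results of these data known, so their shares beside all genes are given as description. Liver RNA came from 24 male Wistar rats of no stated genotype or age, 1 array per rat. The rats ate a low protein diet (5% protein) or a normal diet (20% protein) for 1 week or for 4 weeks, which makes 4 groups, each of 6 rats. Codes in the sample descriptions read 4 and 18 where the titles have 5 and 20, and their second part, 1 or 4, matches the week in the titles. The series design mentions only 4 weeks. The titles are followed here, which leaves the percentages in some doubt, and the times only because of the series design.

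In de novo lipogenesis the liver turns carbon from sugars and amino acids into fatty acids: acetyl-CoA is made in the cytosol, carboxylated to malonyl-CoA and built into palmitate with NADPH as the reductant. Elongases then add carbon units and desaturases insert double bonds, which gives the fatty acids that enter triglycerides, phospholipids and signalling lipids. In liver these genes are known targets of SREBP, ChREBP, LXR and thyroid hormone signalling, which respond to insulin, carbohydrate and sterols.

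The promoters shown are those of the 4 members that passed the test in the diet comparison at 4 weeks, so that the genes that moved can be set side by side. Each runs from 250 bases before to 50 bases after the gene's start in RefSeq (build GRCr8), written 5′ to 3′ along the gene's strand, with motif matches in capitals. They lie at chr8:87670914-87671213 on the plus strand for Elovl5, chr1:253231682-253231981 on the minus strand for Scd, chr8:96540195-96540494 on the minus strand for Me1 and chr1:161138915-161139214 on the minus strand for Thrsp.
Elovl5: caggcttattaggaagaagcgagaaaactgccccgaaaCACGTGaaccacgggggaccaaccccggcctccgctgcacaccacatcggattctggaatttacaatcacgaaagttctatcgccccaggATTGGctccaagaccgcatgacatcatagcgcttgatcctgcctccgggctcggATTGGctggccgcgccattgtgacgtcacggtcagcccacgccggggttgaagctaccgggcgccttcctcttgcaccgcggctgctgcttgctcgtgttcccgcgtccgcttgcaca
Scd: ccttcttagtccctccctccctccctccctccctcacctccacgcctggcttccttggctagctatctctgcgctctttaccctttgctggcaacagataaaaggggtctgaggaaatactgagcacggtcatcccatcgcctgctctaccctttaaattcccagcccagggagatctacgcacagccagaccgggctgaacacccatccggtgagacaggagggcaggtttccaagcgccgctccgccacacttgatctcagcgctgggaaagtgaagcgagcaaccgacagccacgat
Me1: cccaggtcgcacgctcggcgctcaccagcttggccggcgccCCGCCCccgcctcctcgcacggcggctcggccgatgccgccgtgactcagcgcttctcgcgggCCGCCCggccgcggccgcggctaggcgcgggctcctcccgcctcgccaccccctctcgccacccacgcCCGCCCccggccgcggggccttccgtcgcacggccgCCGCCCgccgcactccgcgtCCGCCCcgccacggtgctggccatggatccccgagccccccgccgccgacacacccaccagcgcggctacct
Thrsp: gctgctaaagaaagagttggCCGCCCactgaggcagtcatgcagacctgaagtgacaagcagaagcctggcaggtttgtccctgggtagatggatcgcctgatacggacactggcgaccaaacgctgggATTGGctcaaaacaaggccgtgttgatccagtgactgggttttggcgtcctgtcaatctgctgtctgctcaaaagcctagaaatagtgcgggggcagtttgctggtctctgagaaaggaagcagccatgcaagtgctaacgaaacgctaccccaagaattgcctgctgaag

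Motifs were searched on both strands in these windows and in all 33469 rat promoters of the same length. The sterol response element TCACNCCAC was in 1.12% of all promoters. The E-box CACGTG was in 6.42%, and the motif CCAAT was in 37.5% of them. The GC box GGGCGG was in 33.1%. The response element of amino acid shortage, TGATGNAA, was in 3.98%. The Elovl5 window held the E-box at -212 and CCAAT, on the opposite strand (ATTGG), at -122 and -68, counted from the start. The Thrsp window held an opposite-strand GC box (CCGCCC) at -230 and an opposite-strand CCAAT at -121, and the Me1 window held the GC box on the opposite strand at 5 positions between -209 and -22. None of the 5 motifs was in the Scd window, which says only that these letters are not in those 300 bases. No match overlapped another. Of the 8 members with an entry in the promoter table, 6 held CCAAT, 5 the GC box, 1 the E-box, and 0 either of the other motifs. These matches are letters in a window and not measured binding. Acaca and Elovl6 had no entry.

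Values are log2 of the deposited intensity, and differences are log2 differences with their standard errors from limma, with n = 6 animals per group unless stated. The threshold for a call was an adjusted p of 0.05 (two-sided, Benjamini-Hochberg, all 17245 genes), and a gene that "rose" or "fell" with diet was called higher or lower on 5% than on 20% protein. The deposited intensities ran from 3.27 to 15793 and array medians from 42.4 to 45.5. Within groups, pairs of arrays correlated at r = 0.983 to 0.996 over genes. Levels of different genes are not compared, because each rests on other probes. Array precision is limited by the number of animals. The labels name no batch, but the rat numbers in the titles come in 4 stretches, called runs here. Animals fed for 4 weeks make up the first (rats 22 to 32) and the third run (rats 59 to 73), and animals fed for 1 week the second (rats 49 to 54) and the fourth (rats 74 to 79). At 4 weeks the first run held 5 animals on 5% and 2 on 20% protein, and the third run 1 and 4. At 1 week each run held 3 animals of each diet.

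Some animals stood apart across the members, and some results that rest on them are given with and without them. Rat 32, on 5% protein for 4 weeks, was the lowest of its group in 9 of 10 members, with a mean deviation of -1.21 from the group mean. In its group it also had the lowest summed intensity of the hepatocyte markers (52669), the Kupffer cell markers (3037) and the endothelial markers (2492) and the highest of the biliary markers (811). The part of these in its low values was not tested. Rat 54, on 5% protein for 1 week, was lowest in 7 members, and rat 77, on 20% protein for 1 week, was highest in 9.

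**Figure D1:**
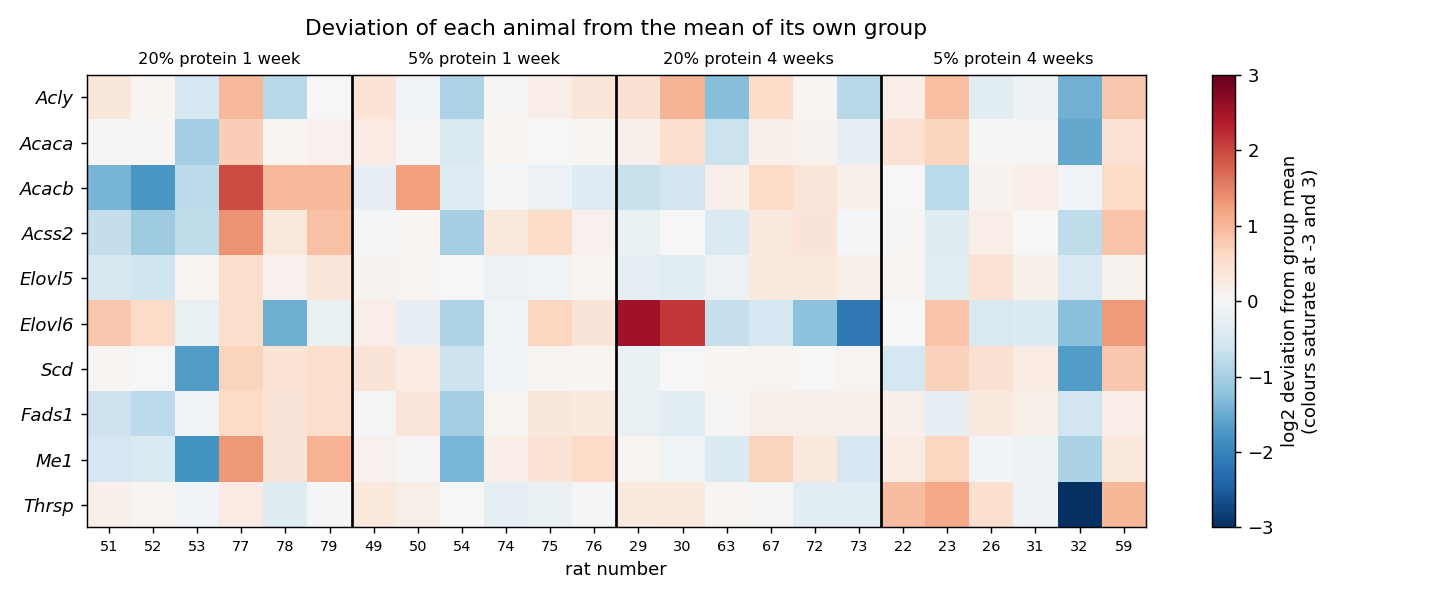
Colour gives the log2 deviation of each rat (columns, by group) from the mean of its own group for each gene (rows), and colours saturate at -3 and 3. Rat 32 is below its group mean in all 10 genes, and rats 29 and 30 stand far above the other animals on 20% protein for 4 weeks in Elovl6.

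After 4 weeks, low protein feeding went with lower Thrsp, Scd and Elovl5 and higher Me1. Thrsp was 4.00-fold lower, Scd 2.07-fold lower, Elovl5 1.80-fold lower and Me1 3.07-fold higher on 5% protein. The remaining 6 members, among them both acetyl-CoA carboxylases and ATP citrate lyase, did not pass the test. So 4 of 10 members were called (1 risen, 3 fallen), where 25.8% of all genes were called, 13.4% risen and 12.4% fallen. The median difference was -0.49 over the members and -0.01 over all genes. In 3 members, all lower, the diet groups did not overlap, where 5.88% of all genes were lower without overlap.

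Thrsp encodes a nuclear protein, induced by thyroid hormone and carbohydrate, that is needed for full lipogenic activity. On 20% protein for 4 weeks its log2 intensity had a lowest value of 12.33, a median of 12.70 and a highest of 12.998. On 5% protein for 4 weeks these were 7.29, 11.38 and 11.81. All 6 animals on 5% protein were below all 6 on 20% protein, and rat 32 was far below the rest of its group, whose next value was 10.53. The difference was -2.00 ± 0.47 (95% interval -2.97 to -1.03, limma adjusted p = 0.00234). Without rat 32 it shrank to -1.32 ± 0.18 (limma adjusted p = 1.24e-05). Within the first run, which holds rat 32, the difference was -2.51 ± 0.70 (limma adjusted p = 0.0167). Within the third run, which has 1 animal on 5% protein, it was -0.85.

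Scd encodes stearoyl-CoA desaturase, which puts a double bond into saturated fatty acids to make monounsaturated ones. On 20% protein for 4 weeks its lowest, median and highest values were 12.86, 13.10 and 13.15. On 5% protein for 4 weeks they were 10.33, 12.36 and 12.83. The groups did not overlap, but the gap between them was small, and the spread was far wider on 5% protein (SD 0.95) than on 20% protein (SD 0.11). The difference was -1.05 ± 0.35 (95% interval -1.78 to -0.32, limma adjusted p = 0.0294). This call was lost when any of 4 animals was left out: without rat 32 the difference was -0.71 (limma adjusted p = 0.0914), without rat 22 -0.95 (0.0669), without rat 67 -1.04 (0.0503) and without rat 73 -1.03 (0.0504). It was also lost with run as a covariate (-0.82 ± 0.39, limma adjusted p = 0.154) and in the first run alone (-1.11 ± 0.47, 0.115). In the third run, which has 1 animal on 5% protein, the difference of Scd was -0.29.

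Elovl5 encodes an elongase of polyunsaturated fatty acids. Its lowest, median and highest values were 11.67, 12.01 and 12.34 on 20% protein for 4 weeks and 10.71, 11.26 and 11.61 on 5% protein. Every animal on 5% protein was below every animal on 20% protein. The difference was -0.85 ± 0.17 (95% interval -1.20 to -0.49, limma adjusted p = 0.000686), and -0.75 without rat 32 (limma adjusted p = 0.00269). Within runs it was -0.56 ± 0.20 in the first (limma adjusted p = 0.0611) and -0.90 in the third, which has 1 animal on 5% protein.

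Me1 encodes cytosolic malic enzyme, which makes NADPH for fatty acid synthesis while it turns malate into pyruvate. It was the only member called higher. Its lowest, median and highest values were 8.97, 9.45 and 10.14 on 20% protein for 4 weeks and 10.14, 11.16 and 11.74 on 5% protein. The groups met at their edge: rat 32, the lowest on 5% protein, and rat 67, the highest on 20% protein, had nearly equal values, and the other animals were separate. The difference was 1.62 ± 0.40 (95% interval 0.79 to 2.45, limma adjusted p = 0.0038), and 1.81 without rat 32 (limma adjusted p = 0.00226). It was called within the first run, at 1.58 ± 0.44 (limma adjusted p = 0.0166). In the third run, which has 1 animal on 5% protein, the difference of Me1 was 1.93.

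**Figure D2:**
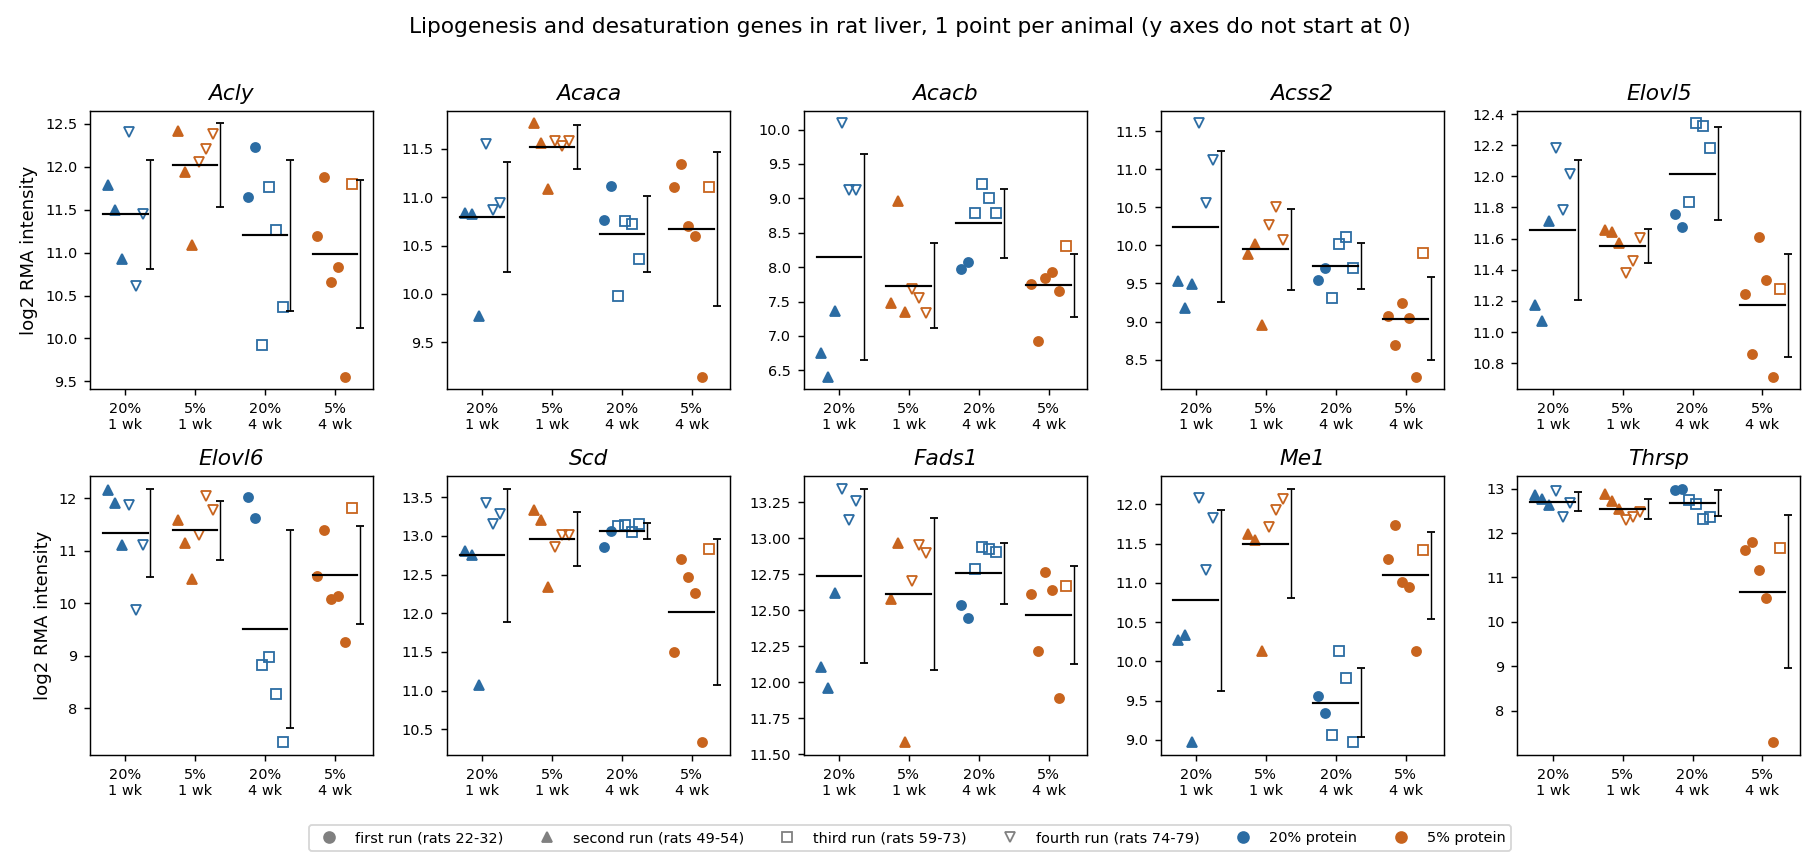
Each point is the log2 intensity of 1 rat, with a panel per gene and a column per diet and week; bars give the group mean and SD of 6 rats, colour the diet and symbol the run. Thrsp, Scd and Elovl5 at 4 weeks show 5% protein animals below all 20% protein animals, and Me1 the opposite except at the edge.

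Among the enzymes that supply acetyl-CoA and malonyl-CoA, none was called at 4 weeks. Acly encodes ATP citrate lyase, which splits citrate from mitochondria into cytosolic acetyl-CoA. Its values ran from 9.93 to 12.23 on 20% and from 9.55 to 11.88 on 5% protein, which overlap almost wholly, with a difference of -0.21 ± 0.39 (95% interval -1.02 to 0.59). Acss2 encodes the acetyl-CoA synthetase that uses acetate. It ran from 9.30 to 10.11 on 20% and from 8.27 to 9.90 on 5% protein, a difference of -0.69 ± 0.34 (95% interval -1.40 to 0.01, limma adjusted p = 0.150).

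Acaca encodes the acetyl-CoA carboxylase of the cytosol, which makes the malonyl-CoA used for synthesis. It ran from 9.98 to 11.12 on 20% and from 9.14 to 11.34 on 5% protein, with rat 32 at the low end, and differed by 0.05 ± 0.29 (95% interval -0.54 to 0.64). Acacb encodes the carboxylase at the mitochondrial surface, whose malonyl-CoA restrains the entry of fatty acids into mitochondria. It ran from 7.98 to 9.20 on 20% and from 6.92 to 8.31 on 5% protein, a difference of -0.90 ± 0.47 (95% interval -1.86 to 0.06, limma adjusted p = 0.170). When only the 12 animals of 4 weeks were fitted, which leaves out the wide spread of Acacb at 1 week, Acacb and Acss2 were called, with limma adjusted p of 0.0121 and 0.0332. That fit takes no account of run, which is uneven between the diets at 4 weeks. With run as a covariate neither was called: Acacb at -0.489 ± 0.46 (limma adjusted p = 0.513) and Acss2 at -0.445 ± 0.274 (0.281). Acss2 differed by -0.758 in the first run and by 0.114 in the third, which has 1 animal on 5% protein. Acacb differed by -0.407 and -0.635.

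Fads1 encodes a desaturase of polyunsaturated fatty acids. It ran from 12.45 to 12.94 on 20% and from 11.89 to 12.76 on 5% protein and differed by -0.29 ± 0.24 (95% interval -0.78 to 0.20). Elovl6 encodes the elongase that takes palmitate to stearate, and here the runs went opposite ways. On 20% protein rats 29 and 30 of the first run had 12.02 and 11.62, while rats 63, 67, 72 and 73 of the third run had 8.82, 8.98, 8.27 and 7.36. On 5% protein the 5 animals of the first run ran from 9.27 to 11.39 and rat 59, the single animal of the third run, had 11.82. The 20% protein group thus lay in separate clusters on either side of most 5% protein animals.

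The pooled difference of Elovl6 was 1.03 ± 0.62 (95% interval -0.24 to 2.30, limma adjusted p = 0.249). Within the first run it was -1.54 ± 0.51 (limma adjusted p = 0.045), and within the third run, which has 1 animal on 5% protein, 3.47. The change between runs was 5.01 (limma adjusted p = 0.0393), a difference called in 0.0290% of all genes. Without rat 29 the pooled difference was called at 1.53 (limma adjusted p = 0.0476). Among the 20% protein animals alone the third run was lower than the first by -3.47 ± 0.53 (limma adjusted p = 0.00293), and 1 of 10 members differed so, against 1.80% of all genes.

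Markers of other liver cells moved with the diet at 4 weeks, where 13.4% of all genes rose and 12.4% fell. Of the Kupffer cell markers, 6 of 8 fell, with a summed intensity of 3037 to 3786 on 5% and 4563 to 7576 on 20% protein, which do not overlap. Of the endothelial markers 1 of 5 fell, and their sums did not overlap either (2492 to 2950 against 2973 to 3531). Of the stellate cell markers 3 of 8 fell (2288 to 3207 against 2742 to 5499). Of the biliary markers 2 of 6 rose (308 to 811 against 270 to 385), and of the erythroid markers 2 of 6 fell (226 to 859 against 403 to 1806). The hepatocyte markers, of which 3 of 7 fell, summed to 52669 to 63346 against 61095 to 69124. Their part in the members' differences was not tested. In bulk liver, fewer cells of a type and less RNA per cell cannot be told apart. Of the adipocyte markers 0 of 8 was called in limma's test at either time, with summed intensities of 1414 to 6310 on 5% and 2709 to 8232 on 20% protein at 4 weeks. Their mean log2 intensities over all arrays were 4.37 for Lep, 4.50 for Adipoq, 4.79 for Plin1, 4.94 for Fabp4, 5.19 for Retn, 6.23 for Cfd, 7.33 for Lipe and 11.98 for Pck1, which hepatocytes also express. The part of adipocyte RNA was not tested. The 7 hepatocyte markers, which check the labelled tissue, had mean log2 intensities of 11.6 to 13.7.

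After 1 week no member was called. Of 10 members 5 were higher and 5 lower on 5% protein, with a median difference of -0.03, while 4.30% of all genes were called in limma's test. At an unadjusted p below 0.05 there was 1 member, Acaca, and it was higher on 5% protein by 0.72 ± 0.29 (95% interval 0.13 to 1.32, limma adjusted p = 0.172). Its values ran from 9.78 to 11.55 on 20% and from 11.09 to 11.76 on 5% protein. Me1 differed by 0.72 ± 0.40 (limma adjusted p = 0.370), and the 20% protein animals ranged from 8.97 to 12.08 and enclosed the 5% protein animals, at 10.13 to 12.06.

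Thrsp at 1 week had a lowest, median and highest value of 12.35, 12.72 and 12.95 on 20% and 12.29, 12.51 and 12.87 on 5% protein. These groups overlapped almost fully, and the difference was -0.16 ± 0.47 (95% interval -1.13 to 0.81). That interval uses a spread shared over the 4 groups, which takes in rat 32 at 4 weeks. The SD of Thrsp was 0.21 on 20% and 0.22 on 5% protein at 1 week, and 1.73 on 5% protein at 4 weeks. For Elovl5 the values ran from 11.07 to 12.18 on 20% and from 11.38 to 11.66 on 5% protein, a difference of -0.10 ± 0.17 (95% interval -0.46 to 0.25). Scd ran from 11.08 to 13.42 on 20%, with rat 53 lowest, and from 12.34 to 13.34 on 5% protein. Its difference was 0.21 ± 0.35 (95% interval -0.52 to 0.94). Without rat 53 the difference of Scd was -0.12. Acly differed by 0.57 ± 0.39, Acss2 by -0.30 ± 0.34, Fads1 by -0.12 ± 0.24 and Elovl6 by 0.05 ± 0.62, and all of these intervals include 0.

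Acacb at 1 week depended on the run. On 20% protein the animals of the second run had 6.76, 6.41 and 7.37 and those of the fourth run 10.09, 9.12 and 9.12. On 5% protein the 6 values ran from 7.33 to 8.96, which met the edge of the lower cluster and lay below the higher. The pooled difference was -0.42 ± 0.47 (limma adjusted p = 0.728). In the second run it was 1.09 ± 0.34 (limma adjusted p = 0.0595) and in the fourth -1.92 ± 0.34 (limma adjusted p = 0.00163). The change between runs was -3.01 ± 0.49 (limma adjusted p = 0.00115), where 7.29% of all genes differed in this way. Elovl6 at 4 weeks and Acacb at 1 week were the members for which the diet difference itself was called different between runs.

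Several members followed the run among the 20% protein animals of 1 week. From the second to the fourth run, 5 of 10 members were called higher, against 10.8% of all genes called in either direction: Acacb by 2.60 ± 0.34, Me1 by 1.83 ± 0.43, Acss2 by 1.70 ± 0.29, Fads1 by 1.02 ± 0.25 and Elovl5 by 0.67 ± 0.20. Among the 5% protein animals of 1 week, 0 of 10 members differed between runs in limma's test (1 at an unadjusted p below 0.05), against 0.783% of all genes. The well positions in the titles put no well row of 1 week in both diets, so well row and diet cannot be told apart there. Over all genes 4.30% were called with diet at 1 week. Of the erythroid markers 4 of 6 fell at 1 week, with summed intensities of 264 to 1094 on 5% and 860 to 2718 on 20% protein, and 1 of 8 stellate cell markers fell. Their part was not tested.

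**Figure D3:**
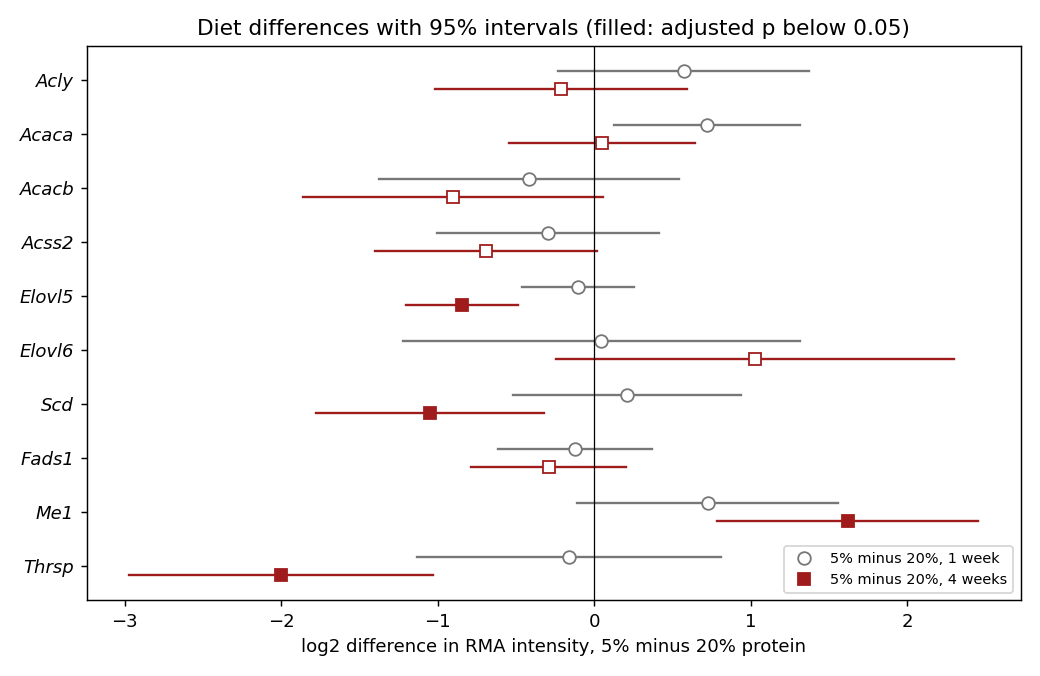
Points give the log2 difference in intensity between 5% and 20% protein for each gene at 1 week (circles) and 4 weeks (squares), with 95% intervals from limma; filled symbols passed an adjusted p of 0.05. Only squares are filled: Elovl5, Scd and Thrsp to the left of 0 and Me1 to the right.

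The change of the diet difference from 1 to 4 weeks was tested directly. No member was called, while 5.75% of all genes were. At an unadjusted p below 0.05 there were 3 members, all with a lower diet difference at 4 weeks: Elovl5 at -0.74 ± 0.25 (limma adjusted p = 0.0727), Scd at -1.26 ± 0.50 (0.139) and Thrsp at -1.84 ± 0.67 (0.102). So the calls at 4 weeks and their lack at 1 week do not by themselves show a different response. Thrsp was called when rat 32 was left out (-1.16 ± 0.25, limma adjusted p = 0.0147), and its standard error went from 0.67 to 0.25. Elovl5 was called without rat 26 (-0.83, limma adjusted p = 0.0377) and without rat 77 (-0.85, limma adjusted p = 0.0375). Me1 changed by 0.90 ± 0.57 and Elovl6 by 0.98 ± 0.87, both with intervals that include 0.

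Between 1 and 4 weeks of feeding, Thrsp fell on 5% protein and no other member passed the test. Its difference was -1.87 ± 0.47 (limma adjusted p = 0.0152), and its groups did not overlap (12.29 to 12.87 at 1 week, 7.29 to 11.81 at 4 weeks), as in 1.94% of all genes in this direction. This was 1 of 10 members, against 8.29% of all genes called, 4.13% in this direction. Without rat 32 the fall was -1.19 ± 0.18 (limma adjusted p = 0.000762). With only the 12 animals on 5% protein in the fit it was not called (limma adjusted p = 0.0729). Of the others, 8 of 9 were lower at 4 weeks, and 5 of these had an unadjusted p below 0.05: Acly at -1.03 ± 0.39 (limma adjusted p = 0.108), Acaca at -0.85 ± 0.29 (0.0681), Acss2 at -0.91 ± 0.34 (0.105), Scd at -0.95 ± 0.35 (0.103) and Elovl5 at -0.38 ± 0.17 (0.202). Without rat 32 these 5 differences were smaller: Acly -0.74, Acaca -0.55, Acss2 -0.76, Scd -0.61 and Elovl5 -0.29, none of them called. With all animals, the median difference was -0.85 over the members and 0.01 over all genes. Of the Kupffer cell markers 5 of 8 fell over this time, with summed intensities of 4261 to 6913 at 1 week and 3037 to 3786 at 4 weeks, and 1 of 5 endothelial markers (Cdh5) and 1 of 7 hepatocyte markers (Cps1) fell too. Their part in the fall of Thrsp was not tested.

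On 20% protein 0 of 10 members were called between 1 and 4 weeks in limma's test, where 2.52% of all genes were. At an unadjusted p below 0.05 there were 3 members. Me1 was lower at 4 weeks by -1.30 ± 0.40 (limma adjusted p = 0.0885), Elovl6 by -1.83 ± 0.62 (limma adjusted p = 0.120), and Elovl5 was higher by 0.36 ± 0.17 (limma adjusted p = 0.298). Thrsp differed by -0.03 ± 0.47. The diet comparison at 4 weeks and this one share the 20% protein animals of 4 weeks, and those on 5% protein share the 5% protein animals of 4 weeks, so the values are given side by side only. Week and run also go together, since no run holds both times, and cannot be told apart. The runs of the same week also differed on 20% protein. Elovl6 means at 1 week were 11.72 in the second run and 10.96 in the fourth. At 4 weeks they were 11.82 in the first run and 8.36 in the third. Me1 means at 1 week were 9.86 in the second run and 11.69 in the fourth. At 4 weeks they were 9.45 in the first run and 9.49 in the third.

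Members varied widely between animals on the same diet and time. The SD within groups, pooled over the 4 groups, ran from 0.32 (Elovl5) to 1.16 (Elovl6), and the median over all genes was 0.181. These lay between the 88.4 and 99.8 percentile of all genes. The animals' deviations from their group mean often went the same way in different members. Of 45 pairs of members, 40 had a Pearson r above 0 over the 24 animals, and the median r was 0.48. A member's median r with the other members ran from 0.223 (Elovl6) to 0.612 (Me1). With genes outside the list it ran from -0.074 (Fads1) to 0.025 (Elovl6). An absolute r of at least 0.6 was reached with 1 (Elovl6) to 5 (Acss2 and Me1) other members. The share of genes outside the list that reached it ran from 1.58% (Acly) to 10.89% (Acacb). By permutation of animals within groups, with 100000 resamples and Benjamini-Hochberg adjustment over the 45 pairs, 22 pairs were called, all of them positive. By Spearman's rho 22 were called, 19 of them by both measures. Without rat 32, 16 pairs of the 22 were called, and without rat 54, 17 were. With deviations taken from the mean of each group within each run, 21 pairs were called, 18 of them shared, with a median r of 0.55.

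The highest r of deviations from the group mean was that of Acss2 and Fads1. Pearson's r was 0.867 (permutation p = 1e-05, the smallest these permutations can give, adjusted 0.00015) and Spearman's rho 0.867 (permutation p = 2e-05, adjusted 0.00045). The r was 0.835 without the 2 animals farthest from the median of Acss2 and 0.781 with deviations taken within runs, where Acly with Me1 (0.879) and Acly with Acaca were higher. Acly and Acaca, which carry out successive steps, had r = 0.839 (permutation p = 1e-05, adjusted 0.00015) and rho = 0.844 (permutation p = 1e-05, adjusted 0.00045), with 0.767 without the 2 farthest animals and 0.873 within runs. Acly and Elovl6 had r = 0.749 (permutation p = 0.00045, adjusted 0.00225) and rho = 0.790 (permutation p = 0.00017, adjusted 0.00153), 0.760 without the 2 farthest animals and 0.783 within runs.

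Of the 22 called pairs, 21 kept an r of at least 0.4 without the 2 farthest animals, and the lowest was 0.35. Acaca and Scd had r = 0.802 (permutation p = 0.00201, adjusted 0.00646), but rho was 0.442 (permutation p = 0.0497, adjusted 0.0931) and r was 0.454 without the 2 farthest animals and 0.812 within runs (permutation p adjusted 0.0239). Scd and Thrsp, both lower on 5% protein at 4 weeks, had r = 0.612 (permutation p = 0.0482, adjusted 0.0867) and rho = 0.360 (permutation p = 0.110, adjusted 0.176), and r was 0.273 without the 2 farthest animals, so this relation rests on them. Acly and Acacb had r = -0.01 (permutation p = 0.960) and rho = -0.14 (permutation p = 0.544).

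**Figure D4:**
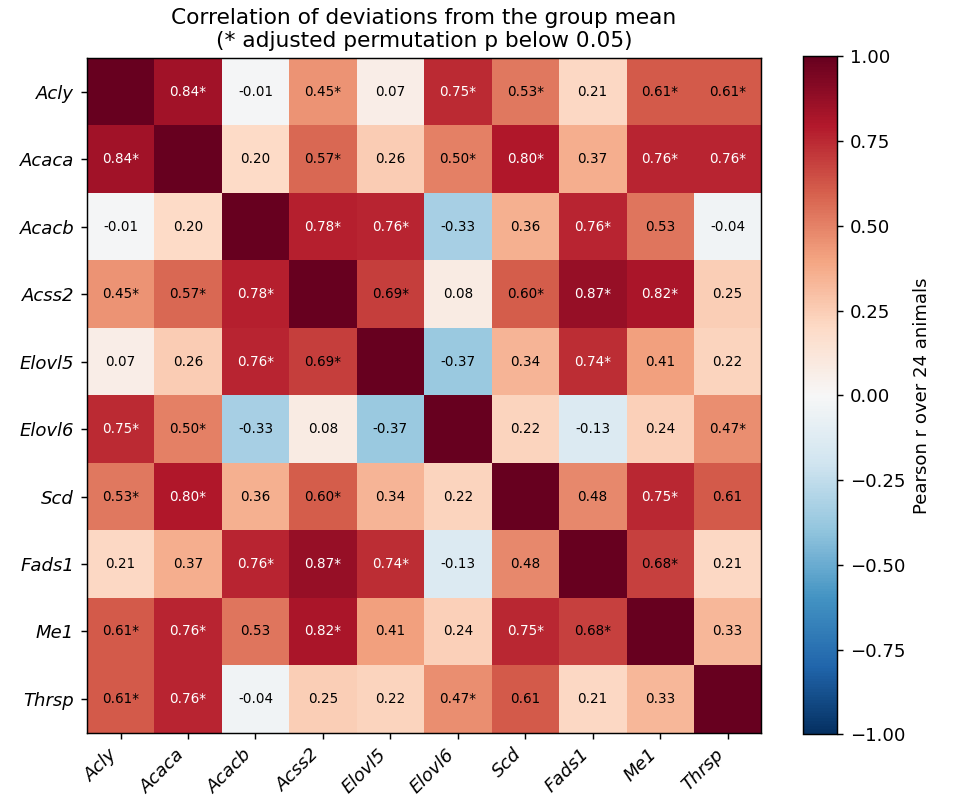
Each cell gives the Pearson r between 2 genes over 24 rats, from log2 deviations from the group mean, with a star where the permutation p adjusted over 45 pairs was below 0.05. Red cells are positive: the highest is Acss2 with Fads1, the lowest Elovl5 with Elovl6 at -0.37, which is not starred.

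Some genes outside the list varied like a member, measured by the Pearson r of deviations from the group mean over the 24 arrays and given as a description. For Acly these were Pklr (r = 0.924), which encodes liver pyruvate kinase, Odad4 (0.864) and Tkfc (0.863), the triokinase of fructose metabolism. For Fads1 they were Ebp (0.935) and Fdft1 (0.917), both enzymes of cholesterol synthesis, and Fads2 (0.923), a desaturase of the same pathway. For Scd they were Pxdc1 (0.796), Cd302 (0.791) and Fabp5 (0.777), a fatty acid binding protein. For Thrsp they were C8g (0.857), a complement component, Cyp4f1 (0.812) and St7l (0.809). The arrays share their animals and runs, and for Thrsp and Scd the single low animals weigh heavily.

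Among other genes of synthesis, elongation and desaturation, 20 of 23 listed were measured, and Fasn, Hacd1 and Hacd2 were not analysed here. At 4 weeks 4 rose and 4 fell, with a median of -0.20, where 25.8% of all genes were called. Those that fell were Elovl2 (-1.01 ± 0.29), an elongase of long polyunsaturated fatty acids, Hsd17b12 (-0.76 ± 0.09), the ketoacyl-CoA reductase of the elongation cycle, Scd2 (-0.75 ± 0.16), a second desaturase of the Scd family, and Cyb5r3 (-0.62 ± 0.15), which passes electrons towards desaturases. Those that rose were Fads3 (0.66 ± 0.23), Elovl1 (0.56 ± 0.15), an elongase of very long chains, Mcat (0.43 ± 0.11), of mitochondrial fatty acid synthesis, and Elovl7 (0.30 ± 0.11). Scd and Scd2 are close relatives, so their probe sets may share signal. Fads2 differed by -0.22 ± 0.20 and Mid1ip1, which encodes a relative of the Thrsp protein, by -0.61 ± 0.37, neither called. At 1 week 1 of 20 was called, where 4.30% of all genes were: Hsd17b12 fell by 0.34 on the log2 scale.

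Of 23 listed genes for citrate, NADPH and acyl-CoA supply, 18 were measured, and at 4 weeks 2 rose and 4 fell. Over all genes 25.8% were called at 4 weeks. Cs, citrate synthase, rose by 0.50 ± 0.09 and Acsl4, an acyl-CoA synthetase, by 0.39 ± 0.12. Those that fell were Mpc1 (-0.65 ± 0.17), a part of the mitochondrial pyruvate carrier, Acsl1 (-0.63 ± 0.16), a major hepatic acyl-CoA synthetase, Slc25a10 (-0.61 ± 0.18), the dicarboxylate carrier, and Mdh1 (-0.43 ± 0.15), cytosolic malate dehydrogenase. Me1 thus rose while the enzyme that makes cytosolic malate fell. At 1 week 0 of 18 was called in limma's test, where 4.30% of all genes were. In the test of the change of the diet difference, Cs (0.44 ± 0.13) and Acsl4 (0.66 ± 0.17) were called, as were 5.75% of all genes. The other listed genes were not analysed here.

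Of 23 listed genes of transcription control, 20 were measured, and Srebf1, Mlxipl and Thra were not analysed here. At 4 weeks 3 rose and 3 fell, where 25.8% of all genes were called, 13.4% risen and 12.4% fallen. Mbtps1 (0.35 ± 0.07) and Mbtps2 (0.74 ± 0.20), the proteases that release SREBP, and Nr1h2 (0.27 ± 0.06), LXR beta, rose. Cebpa (-0.65 ± 0.10), Rxra (-0.48 ± 0.11), the partner of LXR, and Nr1h3 (-0.30 ± 0.10), LXR alpha, fell. Insig1, a sterol-responsive retainer of SREBP, differed by -0.19 ± 0.40, not called. At 1 week Thrb, the main hepatic thyroid hormone receptor, rose by 0.40 ± 0.10, as 1 of 20. Over all genes 4.30% were called at 1 week.

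Of 12 measured genes that control acetyl-CoA carboxylase and malonyl-CoA, 4 rose and 1 fell at 4 weeks. Over all genes 13.4% rose and 12.4% fell. Trib3, a pseudokinase known to promote the breakdown of acetyl-CoA carboxylase, rose by 4.90 ± 0.41 and Cpt1b, a carnitine palmitoyltransferase inhibited by malonyl-CoA, by 3.14 ± 0.49. Prkab2, a subunit of AMP kinase, rose by 0.69 ± 0.11 and Mlycd, which degrades malonyl-CoA, by 0.44 ± 0.14, while Prkab1, the other beta subunit, fell by 0.82 on the log2 scale. At 1 week Trib3 rose by 2.95 ± 0.41 and Prkab1 fell by 0.44, where 4.30% of all genes were called. Acaca and Acacb were not called in either diet comparison. In the test of the change of the diet difference, 3 of these 12 were called higher at 4 weeks: Cpt1b (2.42 ± 0.69), Trib3 (1.96 ± 0.58) and Prkab2 (0.65 ± 0.16). Over all genes 5.75% were called in that test.

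From 1 to 4 weeks on 5% protein, 3 of 20 genes of synthesis, elongation and desaturation fell, namely Elovl2 (-1.14 ± 0.29), Hsd17b12 (-0.38 ± 0.09) and Hacd4 (-0.36 ± 0.10), a dehydratase of elongation. Over all genes 8.29% were called over this time, and 4.13% fell. Of the supply genes 2 of 18 fell, Pdhb (-0.66 ± 0.15), a subunit of pyruvate dehydrogenase, and Mdh1 (-0.62 ± 0.15). Of the transcription genes Mbtps1 rose (0.23 ± 0.07) and Thrb fell (-0.37 ± 0.10). Of the genes that control malonyl-CoA, Cpt1b (1.91 ± 0.49), Trib3 (1.65 ± 0.41) and Prkab2 (0.60 ± 0.11) rose. The Trib3 values of 1 week differed between the runs, as given above. On 20% protein the single gene called in these 4 lists was Mecr, of mitochondrial fatty acid synthesis, which fell by 0.50 on the log2 scale. Over all genes 2.52% were called there.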

How the data were processed

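Liver RNA of 24 rats was measured on 1-colour Affymetrix whole-transcript arrays. The authors deposited probe set intensity values after RMA (background subtraction, quantile normalization and probe summary), unlogged, per the labels and the submitters' processing notes, with no version. RMA gives no detection call, and the genome build is not given in the sources used here. Of 29214 probe sets, 18644 had 1 gene symbol in the array annotation, 962 several and 9608 none; the probe set with the highest mean log2 was kept per gene, which left 17245 genes.

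The 4 group means were fitted to log2 intensity in 1 model with limma 3.58.1 (lmFit, eBayes; R 4.3.3, data.table version 1.17.8); residual degrees of freedom were 20 and the prior 3.95. Calls used Benjamini-Hochberg adjusted p below 0.05 over all genes. Each array is a different rat. Within-run values came from a fit with a mean for every combination of group and run, so a run with 1 animal of a diet takes its spread from the others. Correlations, promoters and figures used Python 3.11.15, numpy 2.4.6, scipy 1.17.1 and pandas 2.3.3. The code was tested on simulated data. Named genes were all members, up to 4 called genes of each list in each direction, 6 fixed regulators (Mlxipl not analysed here), and the 3 most alike genes for 4 members. Members and lists were chosen with earlier results of these data known. Alternatives covered normalization, offset, probe set rule, a filter on dim genes, eBayes settings, array weights, samples fitted, run, well and single animals.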

Additional observations from a re-analysis of the deposited data

Results flagged for a closer look

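A single animal lay apart from the other 5 of its group in 9 of 40 sets of a member and a group. Apart here means a gap to the next animal above 0.625 of the group's range, which can be small in log2 units. For separate sets, chance gives about 1 in 20. These sets share animals and the members vary together, so they are not separate. The values are log2 intensities. On 5% protein for 1 week, rat 54 was low in Acly (11.09, next 11.94), Acaca (11.09, next 11.53), Fads1 (11.58, next 12.58) and Me1 (10.13, next 11.54), and rat 50 was high in Acacb (8.96, next 7.68). On 5% protein for 4 weeks, rat 32 was low in Acaca (9.14, next 10.6) and Thrsp (7.29, next 10.53). On 20% protein, rat 53 was low in Scd at 1 week (11.08, next 12.76) and rat 29 at 4 weeks (12.86, next 13.05).

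The diet difference changed between runs in Acacb at 1 week, by -3.01 from the second to the fourth run (limma adjusted p = 0.00115). For Elovl6 at 4 weeks it changed by 5.01 from the first to the third run (limma adjusted p = 0.0393).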

How the results depend on the processing

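No paired analysis was possible because each rat number occurs once in the labels. Under alternatives other than leaving out an animal, 560 refitted member differences kept their side of the threshold with no change of sign beyond 1 standard error, 14 became called, 6 were no longer called, 9 that were not called changed sign by more than that, and 1 reversed. The Elovl6 diet difference at 4 weeks turned to -1.54 in the first run alone. At 4 weeks the members risen were 2 with array weights and in the third run alone, and the members fallen were 5 with only the groups compared and 1 in the third run alone. In the fourth run alone, 1 member fell at 1 week. For diet by time, 1 fell with array weights. Over time on 5% protein, 5 fell with array weights, 0 with only the groups compared and 2 with well row as a block. Over time on 20% protein, 2 fell with array weights and 1 with run as a covariate. Leaving out each animal gave 1 to 2 risen and 2 to 3 fallen at 4 weeks, 0 to 1 fallen for diet by time (1 without rat 26, 32 or 77), 1 to 3 over time on 5% protein (2 without rat 23, 3 without rat 53) and 0 to 1 over time on 20% protein (1 without rat 29, 30 or 53). The causes were not tested.

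Counts over all genes moved by more than 1.5 times in these cases. Diet by time gave 952 risen and 588 fallen with array weights and 311 and 175 with run as a covariate, against 611 and 380. With single animals left out, the lowest counts were 360 and 219, both without rat 32. The highest, 890 and 519, stayed within 1.5 times. The diet counts at 1 week were 494 and 812 in the second run, 696 and 768 in the fourth, 168 and 168 with well row as a block, 213 and 205 without rat 74 and 277 fallen without rat 76, against 321 and 420. The first run gave 1434 and 1300 at 4 weeks, the third run 1178 and 946, against 2308 and 2147. Time on 5% protein gave 403 and 386 without rat 32, against 716 and 713. Time on 20% protein gave 421 fallen with array weights, 117 risen with only the groups compared, 81 risen and under 151 fallen with well row as a block, 113 and 151 without rat 67, 113 and 162 without rat 73, and 169 fallen without rat 72, against 176 and 259. The number of animals limits the precision of each difference.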
